A study of Nicotiana tabacum with 12 samples.

Results

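The genes described here encode the subunits of photosystem I, photosystem II and the cytochrome b6-f complex, together with plastocyanin. They were chosen by the words of their domain descriptions (photosystem, photosynthetic reaction centre, oxygen-evolving, cytochrome b6, cytochrome f, plastocyanin, PsaA, PsbP or PsbQ), with antenna proteins kept apart, and 365 of the 69500 genes listed met that rule. Sorted by description, 112 were nuclear genes for photosynthetic subunits and their assembly factors, and 115 were gene models of the kind normally found in the plastid genome. A further 113 were plastocyanin-like cupredoxins, whose description shares a word with plastocyanin but does not mark them as thylakoid proteins, and 25 carried other domains as well. Of the 365 genes, 96 were listed at 0 in all libraries and 200 were tested, having reached 1 TPM in 3 or more libraries.

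Photosystem II uses light to take electrons from water, and its oxygen-evolving proteins PsbO, PsbP and PsbQ stabilise the manganese cluster where this happens. Electrons then pass through plastoquinone to the cytochrome b6-f complex, through the copper protein plastocyanin to photosystem I, and from there to ferredoxin. In plants the reaction-centre proteins (PsaA, PsaB, PsbA to PsbD) and cytochrome f are encoded in the plastid genome, while the peripheral and extrinsic subunits are made from nuclear genes and imported.

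RNA came from leaves of Nicotiana tabacum at the seedling stage, in 12 libraries. KY and K326 are labelled wild type, Q18 is labelled a knockout and YOE an overexpression, with 3 libraries each. The study asked how the gene NtCISZOG bears on leaf chlorophyll, and its design text speaks of the lines K326-gk-8 and KY-OE-31. Those names pair the knockout with K326 and the overexpression line with KY, but the labels give neither the background of Q18 and YOE nor an allele, a promoter or the number of plants. The labels do not say whether the 3 libraries of a group are separate plants, so each p-value reflects just the scatter among these libraries, and that scatter may be technical. No row could be tied to NtCISZOG, so the targeted gene was not checked in the libraries.

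The labels do not give the background of YOE, so genes on in K326 or in KY alone were examined. Of 87 genes at 2 TPM or more in all K326 libraries and at 0.2 or less in all KY libraries, between 82 and 85 were at 1 or more in each library labelled YOE, and of 13 genes with the opposite pattern at most 1 was. The libraries labelled YOE therefore sided with K326 at these genes, and 0 of the 365 members were among either set. Why they did so was not tested. The comparison of YOE with KY may carry a difference in background as well as the line, and the 2 cannot be told apart in it. For this reason YOE is given against both wild types.

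Values are TPM, a share of transcripts corrected for length. The deposited columns summed to between 334759 and 676862, so each library was divided by a scale factor that sets its typical gene level (0.550 to 1.61), and all levels below are median-scaled TPM with SD and n = 3 unless said otherwise. Without that step the median gene differed by 0.24 on the log2 scale between Q18 and K326, by -0.11 between YOE and KY, by 0.39 between K326 and KY and by -0.51 between YOE and K326, and with it by 0.02 or less in size. Many calls below turn on this choice, and the result on deposited values is given where it differs. Total reads are unknown, since TPM keeps no depth. As markers of the leaf, genes for the Rubisco small subunit summed to 13338 to 22636 in KY, 9664 to 11817 in K326, 6756 to 16734 in Q18 and 12211 to 19041 in YOE. Phloem genes summed to 491 to 593 in KY, 344 to 392 in K326, 439 to 562 in Q18 and 640 to 1434 in YOE. Histone and cyclin genes of dividing cells summed to 2238 to 2413 in KY, 2016 to 2304 in K326, 1951 to 2011 in Q18 and 2254 to 3098 in YOE. Of the 158 tested, 34.2% were called higher in YOE than in KY, against 17.9% of all genes, and 15.2% higher in YOE than in K326, against 5.71%. On deposited values these shares were 18.5% and 6.37%, and 21.0% were called lower in YOE than in K326. Lipid transfer protein genes of the epidermis summed to 1408 to 1511 in KY, 1769 to 2233 in K326, 1138 to 1714 in Q18 and 1660 to 2445 in YOE. No gene matched the root list. In whole leaves, fewer cells of a type and less RNA per cell cannot be told apart, and the part of leaf make-up in any result below was not tested.

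The nuclear subunits were among the most abundant transcripts of these leaves. Their 112 genes took up 9.90 ± 0.74% of all deposited TPM in KY, 7.69 ± 1.47% in K326, 6.98 ± 1.501% in Q18 and 8.26 ± 1.43% in YOE. Of the 112, 106 were at 1 or more in all 12 libraries, 62 had a mean of 100 or more, 11 a mean of 1000 or more, and 3 were listed at 0 throughout. Most subunits were carried by 2 to 6 gene copies, as an allotetraploid genome would have, and reads from near-identical copies can be split between them by the counting, so sums over copies are steadier than single genes.

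Within photosystem II, PsbR, a small subunit that helps hold the oxygen-evolving proteins in place, was the most abundant kind, with 4 genes that summed to a mean of 7021 over the 12 libraries. PsbQ followed with 9 genes and 3333, PsbO with 6 genes and 2758, PsbW, which stabilises photosystem II supercomplexes, with 4 genes and 2193, and PsbP with 25 genes and 2023. The PsbP genes included the wider PsbP-domain family, whose relatives act in building photosynthetic complexes. In photosystem I the order ran from PsaH (3168), which lies where the antenna docks, through PsaD (2336) and PsaE (2316), both at the ferredoxin side, PsaG (2150), PsaL (2145), PsaK (2025), PsaO (1912) and PsaF (1906), which receives plastocyanin, to PsaN (1614). Plastocyanin itself had 7 genes and a sum of 2281, the Rieske protein PetC of the cytochrome b6-f complex 2 genes and 1368, and the small subunit PetM 2 genes and 801. Neighbours in these orders were not tested against each other. The assembly factors were far lower, with Psb27 at 163, Psp29 at 139, Psb28 at 96.0, the PsbQ-like cyclophilins at 46.2 and the S4-domain proteins of photosystem II at 12.5.

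**Figure D1:**
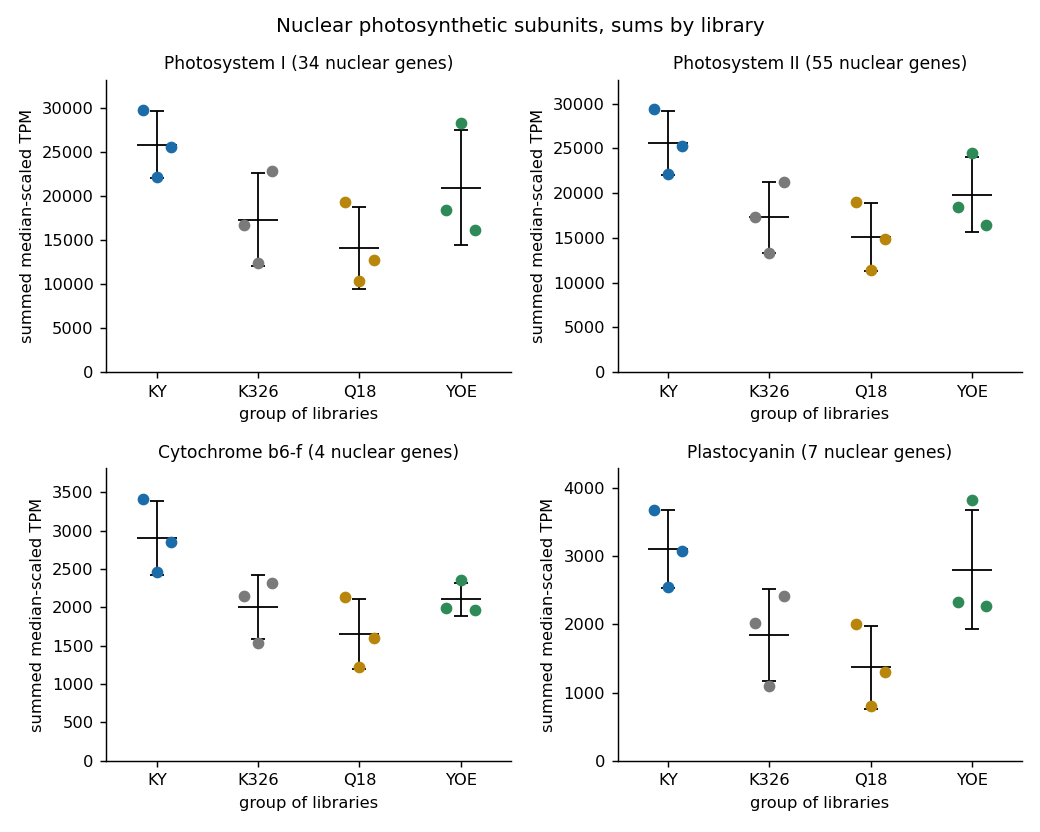
Summed median-scaled TPM of the nuclear genes of photosystem I, photosystem II, the cytochrome b6-f complex and plastocyanin in each library (points), with the mean and SD of each group of 3 (bars). In photosystem II the 3 KY libraries (22162 to 29356) lie above the 3 K326 libraries (13303 to 21209), and in all panels Q18 overlaps K326.

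The knockout was compared with K326 to ask whether losing the target changes these genes. No photosynthetic subunit passed the test: 0 of 109 nuclear genes and 0 of 45 plastid-type genes were called higher or lower (limma, Benjamini-Hochberg adjusted p under 0.05), against 0.0% of all 30621 genes tested in either direction. At an unadjusted p under 0.05 there were 2 nuclear and 3 plastid-type genes, and 2075 genes in the whole table. On deposited values limma likewise called 0 of the nuclear and 0 of the plastid-type genes, against 0.0128% of all genes higher and 0.00639% lower.

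The values themselves leaned one way. The nuclear sum was 38655, 28563 and 49268 in K326 and 42912, 24019 and 30734 in Q18, so the groups overlapped widely. The median log2 difference of the 109 nuclear genes was -0.29 and 98 of them were below 0, while over all genes the median was 0.02 and 46.2% were below 0. That lean depends on the scaling, since on deposited values the nuclear median was -0.02, with 59 of 109 below 0, and that of all genes 0.24. The intervals of single genes were wide. PsbQ Nitab4.5_0002345g0070 stood at 1315 ± 316 in K326 and 1179 ± 354 in Q18 (log2 difference -0.17, 95% interval -0.78 to 0.43). That interval is not adjusted for the number of genes tested, so changes of that size or larger could have gone uncalled. PsbR Nitab4.5_0002475g0030, the highest single gene, stood at 3474 ± 535 and 3341 ± 586 (log2 difference -0.06, interval -0.54 to 0.42). For the plastocyanin gene Nitab4.5_0003030g0010 the interval ran from -1.28 to 0.35.

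The 2 nuclear genes with the smallest p were picked with their values in view. PsbO Nitab4.5_0000382g0110, the lowest of the 6 PsbO genes, had 8.34, 5.39 and 15.7 in K326 and 5.82, 2.54 and 2.55 in Q18, and the groups overlapped at 1 library (log2 difference -1.18, limma adjusted p = 0.543). PsaN Nitab4.5_0000687g0180, which sits on the lumen side of photosystem I, had 61.9, 52.1 and 79.4 in K326 and 52.2, 36.4 and 49.8 in Q18 (log2 difference -0.47, limma adjusted p = 0.641).

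The wild types were compared because the design text names the lines after them. Genes of photosystem II, most of them of the PsbP and PsbQ families, were lower in K326 than in KY: 19 of 54 photosystem II genes, 1 of 34 photosystem I genes, 0 of 4 cytochrome b6-f genes, 0 of 5 plastocyanin genes and 4 of 12 assembly factor genes passed the test in that direction, and 0 nuclear genes passed in the other. In all, 24 of 109 nuclear genes (22%) were called lower, against 13.3% of all genes tested, and 12.2% of all genes were called higher. The photosystem II count includes the wider PsbP-domain family, which was not separated from the subunit PsbP. Whether photosystem II and photosystem I differ in their response was not tested. The photosystem I genes had a median log2 difference of -0.64, against -0.76 in photosystem II and 0.02 over all genes. In 59 nuclear genes every K326 library was below every KY library, and in 1 above, against 23.9% and 24.7% of all genes. Marker sums separated in the same comparison: those of the Rubisco small subunit and of phloem were lower in all K326 libraries than in all KY libraries, and those of lipid transfer proteins were higher. On deposited values the groups overlapped in the first 2 of these and not in the last. Their part was not tested.

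By kind, the calls were 11 of 25 PsbP genes, 4 of 9 PsbQ genes, both PsbQ-like cyclophilins, and 1 gene each of PsbO, PsbR, PsbW, PsbX, PsaE, Psb27 and the S4-domain proteins. PsbQ Nitab4.5_0002345g0070, the most abundant PsbQ gene, stood at 2923, 2165 and 2510 in KY and at 1271, 1024 and 1650 in K326. Every KY library was above every K326 library (log2 difference -0.96, SE 0.28, limma adjusted p = 0.0262). PsbO Nitab4.5_0009967g0020, the most abundant gene for the manganese-stabilising protein, stood at 1401, 1013 and 1225 in KY and at 572, 452 and 748 in K326, again without overlap (log2 difference -1.05, SE 0.29, limma adjusted p = 0.0217). PsaE Nitab4.5_0004333g0020, the only photosystem I gene called, had 2082, 1516 and 1886 in KY and 991, 855 and 1304 in K326, also apart (log2 difference -0.81, limma adjusted p = 0.0256).

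The smallest p-values belonged to weakly expressed members of these families. PsbP Nitab4.5_0000407g0010 had 71.4, 56.3 and 57.6 in KY and 29.2, 24.1 and 32.7 in K326 (log2 difference -1.09, limma adjusted p = 0.00131). PsbW Nitab4.5_0001044g0040, a minor copy beside Nitab4.5_0002680g0040 at a mean of 1248, had 49.5, 33.4 and 43.1 in KY and 17.0, 14.8 and 15.2 in K326 (log2 difference -1.35, limma adjusted p = 0.00179). In both genes the lowest KY library was clearly above the highest K326 library. Of the other PsbP-family genes, Nitab4.5_0000424g0030 fell by 0.90 on the log2 scale, Nitab4.5_0000125g0190 by 0.87, Nitab4.5_0009303g0010 by 0.80, Nitab4.5_0004095g0010 by 0.74 and Nitab4.5_0000445g0090 by 0.72, all past the threshold. The 2 PsbP genes with the highest means, Nitab4.5_0006644g0080 (681 ± 73.5 in KY, 390 ± 152 in K326) and Nitab4.5_0000019g0250, had log2 differences of -0.87 and -0.76 and did not pass (limma adjusted p = 0.0695 and 0.064).

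These calls rest on the scaling and on single libraries. On deposited values only PsbW Nitab4.5_0001044g0040 stayed lower (log2 difference -0.86, limma adjusted p = 0.0263), PsbP Nitab4.5_0003160g0050 and PsaN Nitab4.5_0017347g0020 were called higher, and the background was 2.99% lower and 24.0% higher. The nuclear count of 24 became 8 without KY replicate 1, 11 with KY replicate 3 left out and 7 without K326 replicate 2. Over all genes the count called lower was 4059 in the main fit, and 1982, 2362 and 2439 in the same order. As sums over all copies, photosystem II was 25588 ± 3609 in KY and 17292 ± 3954 in K326 (log2 ratio -0.57), cytochrome b6-f 2910 ± 483 and 2003 ± 415 (-0.54) and plastocyanin 3104 ± 570 and 1844 ± 676 (-0.75). In none of these did the groups overlap, but the exact two-sided permutation test cannot go below p = 0.1 with 3 against 3, which all 3 sums reached (adjusted p = 0.311 over 28 sums). Photosystem I summed to 25864 ± 3789 and 17309 ± 5285 (-0.58), with overlap (exact permutation p = 0.2, adjusted p = 0.467). On deposited values the log2 ratios were -0.06 for photosystem II, -0.04 for cytochrome b6-f, -0.27 for plastocyanin and -0.08 for photosystem I.

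**Figure D2:**
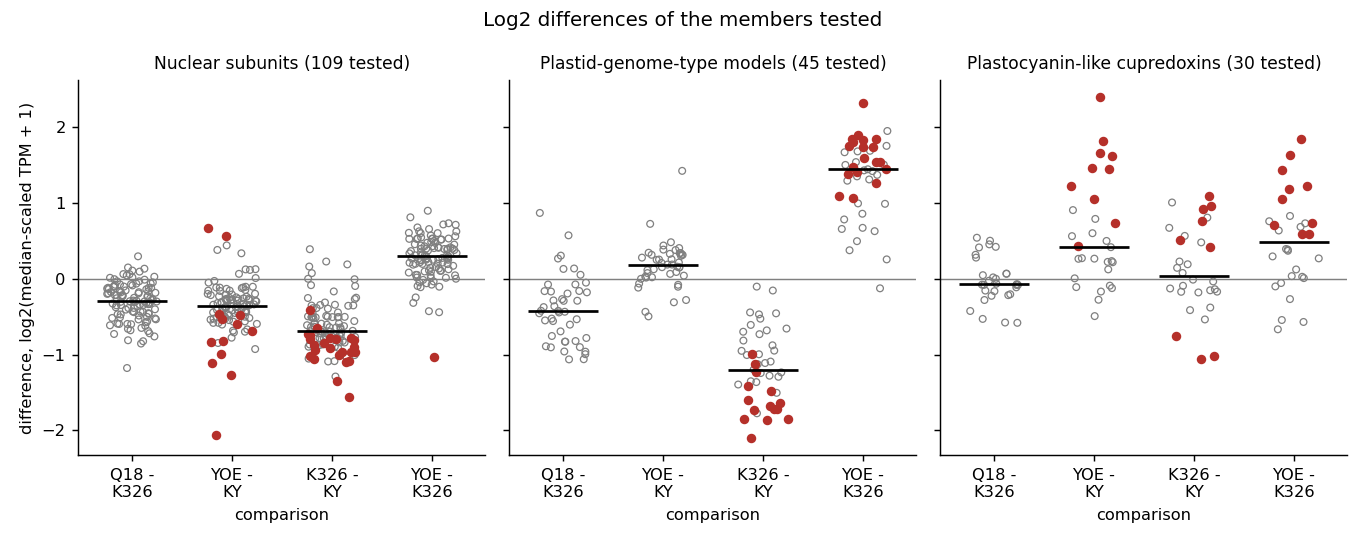
Difference in log2(median-scaled TPM + 1) of each tested gene in the 4 comparisons, for nuclear subunits, plastid-genome-type models and plastocyanin-like cupredoxins; filled red points passed limma's adjusted p of 0.05, open points did not, and black lines are medians. The nuclear medians run from -0.69 (K326 minus KY) to 0.30 (YOE minus K326), the plastid-type medians from -1.20 to 1.45 in the same comparisons, which share the K326 libraries, and no point is filled for Q18 minus K326.

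The overexpression line was compared with KY and with K326. Against KY, 11 of 109 nuclear genes were called lower (10.1%, against 17.5% of all genes) and 2 higher (1.83%, against 17.9%), so both shares were under the background. Still, 99 of the 109 were below 0, with a median log2 difference of -0.36, against 50.4% and -0.0055 for all genes. On deposited values 103 were below 0 and the median was -0.52, against 59.8% and -0.11. The log2 ratios of the sums were -0.30 for photosystem I, -0.37 for photosystem II, -0.47 for cytochrome b6-f and -0.15 for plastocyanin. Groups overlapped in all but cytochrome b6-f (exact permutation p = 0.1, adjusted p = 0.311). Without regard to the test, 25 nuclear genes lay below KY in all YOE libraries and 3 above, against 24.5% and 23.1% of all genes. The lower genes were 5 of the PsbP family and 1 each of PsbO, PsbR, PsbW, PsaN, Psb27 and the S4-domain proteins. PsbP Nitab4.5_0000407g0010 (30.5 ± 3.47 in YOE), PsbW Nitab4.5_0001044g0040 (16.8 ± 2.52) and Psb27 Nitab4.5_0001560g0030 (16.1 ± 0.891, against 23.9 ± 4.47 in KY) stood nearer K326 (28.6 ± 4.31, 15.7 ± 1.13 and 13.4 ± 2.28) than KY. The 2 higher genes were named only because they were the whole of that count. They were PsbP-family Nitab4.5_0003160g0050 (59.6 ± 15.3 in YOE, 36.8 ± 6.35 in KY, log2 difference 0.67, limma adjusted p = 0.0445) and plastocyanin Nitab4.5_0006806g0080 (20.3 in YOE, 13.3 in KY, log2 difference 0.56, limma adjusted p = 0.00809). Deposited values gave 0 higher and 24 lower nuclear genes (22% lower), against 6.76% and 11.5% of all genes. The log2 ratios of the deposited sums were -0.51 for photosystem I, -0.55 for photosystem II, -0.62 for cytochrome b6-f and -0.35 for plastocyanin. The count of 11 became 5 with KY replicate 1 left out and 7 with KY replicate 3 left out. Of all genes, 5353 were called lower in the main fit, and 3620 and 3722 in those fits.

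Against K326, 1 of 109 nuclear genes passed (0.917% lower, against 4.74% of all genes), and 0 were higher, against 5.71%. By separation alone, 11 nuclear genes lay above K326 and 2 below, against 12.5% and 14.6% of all genes. The median log2 difference of the nuclear genes was 0.30, and it was -0.36 on deposited values, where 17 genes were called lower, against 36.9% of all genes, and 0 higher, against 1.89%. The direction of YOE against K326 for these subunits therefore changes with the scaling: photosystem II sums were 19822 ± 4187 in YOE and 17292 ± 3954 in K326 after scaling, and 14334 ± 865 and 20082 ± 3827 as deposited. The log2 ratios of these sums were 0.20 (exact permutation p = 0.5) and -0.49 (p = 0.1).

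The gene that passed was a minor PsbR copy. Nitab4.5_0001791g0030 had 177, 212 and 192 in KY, 62.5, 93.4 and 144 in K326, 69.1, 90.7 and 71.9 in Q18, and 55.0, 37.6 and 45.7 in YOE. All YOE libraries were below all K326 libraries, and all K326 libraries were below all KY libraries. The log2 difference was -2.06 for YOE against KY (SE 0.26, limma adjusted p = 0.000207), and over all alternatives tried it stayed between -2.22 and -1.92 and past the threshold. It was -1.02 for K326 against KY (limma adjusted p = 0.0157, and 0.266 on deposited values, where it was -0.52). For YOE against K326 it was -1.04 (limma adjusted p = 0.0305), and the call was lost without K326 replicate 2 (log2 difference -1.05) or 3 (-0.73), and without YOE replicate 2 (-0.90) or 3 (-1.04). It was also lost without the filter (adjusted p = 0.0527) and with only the 6 libraries compared (0.131). Within the PsbR genes, a comparison that no library scaling can alter, this copy held 2.41 ± 0.44% of the PsbR sum in KY, 1.46 ± 0.47% in K326, 1.25 ± 0.40% in Q18 and 0.69 ± 0.17% in YOE. The other 3 PsbR genes did not pass in any comparison after scaling, while on deposited values 2 of them were called lower in YOE than in K326, Nitab4.5_0000313g0040 (log2 difference -0.62, limma adjusted p = 0.0255) and Nitab4.5_0002475g0030 (-0.66, adjusted p = 0.0227). The latter held between 50.1 and 55.9% of the sum in every library.

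**Figure D3:**
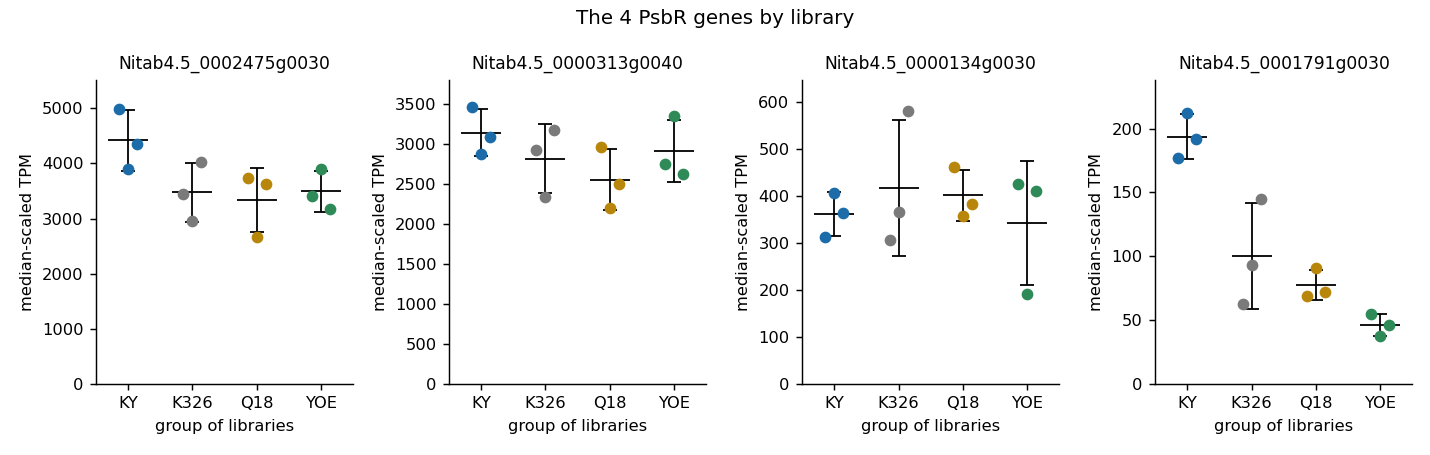
Median-scaled TPM of the 4 PsbR genes in each library (points), with the mean and SD of each group of 3 (bars). The minor copy Nitab4.5_0001791g0030 runs from 177 to 212 in KY down to 37.6 to 55.0 in YOE, while the groups of the other genes lie much closer together.

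The widest range of group means, in percentage points, among all kinds of nuclear subunit was in PsaO, an antenna-docking subunit of photosystem I with 2 genes, where Nitab4.5_0000937g0110 held 61.3% of the sum in KY, 56.5% in K326, 51.4% in Q18 and 61.7% in YOE, with single libraries from 46.3 to 68.2%. In PsaE, Nitab4.5_0004333g0020 held 57.05, 54.9, 57.8 and 51.2% in the same order of groups. These shares were not tested.

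The plastid-genome-type models carry the descriptions of PsaA or PsaB, the heart of photosystem I, of the PsbA and PsbD reaction-centre proteins, of the inner antenna proteins PsbB and PsbC, and of smaller subunits. Whether their reads come from plastid transcripts or from copies of plastid DNA in the nuclear genome cannot be told apart here, and the labels name only total RNA. Many models are of the same kind, such as the 29 of PsaA or PsaB, and reads can be split between similar copies. Counts of models below are therefore not counts of independent genes. Of the 115 models, 43 were at 0 in every library, 27 were above 0 but under the filter, and 45 were tested, of which 24 were at 1 or more in all 12 libraries. Their sum was 2681, 2007 and 2307 in KY, 1506, 568 and 972 in K326, 740, 401 and 743 in Q18, and 2667, 5235 and 1371 in YOE. KY was above every K326 and Q18 library, while 1 YOE library lay above the KY range, 1 within it and 1 below it.

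By kind, the summed means over the 12 libraries were 856 for 20 PsbA or PsbD models, 439 for 29 PsaA or PsaB models, 243 for 16 PsbB or PsbC models, 132 for 3 PsbH models and 25.05 for 3 PsaC models, PsaC being the iron-sulphur subunit that hands electrons to ferredoxin. The 9 cytochrome f models together reached 6.58 and the 12 cytochrome b559 models 1.97, and all 3 PsaI models were listed at 0. These are far below the nuclear partners of the same complexes: PsaA or PsaB models summed to 652 ± 170 in KY, where PsaD alone summed to 3135 ± 466. Single models were uneven, with 18 of the 45 tested at a mean of 10 or more and 27 between 0.5415 and 9.29.

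**Figure D4:**
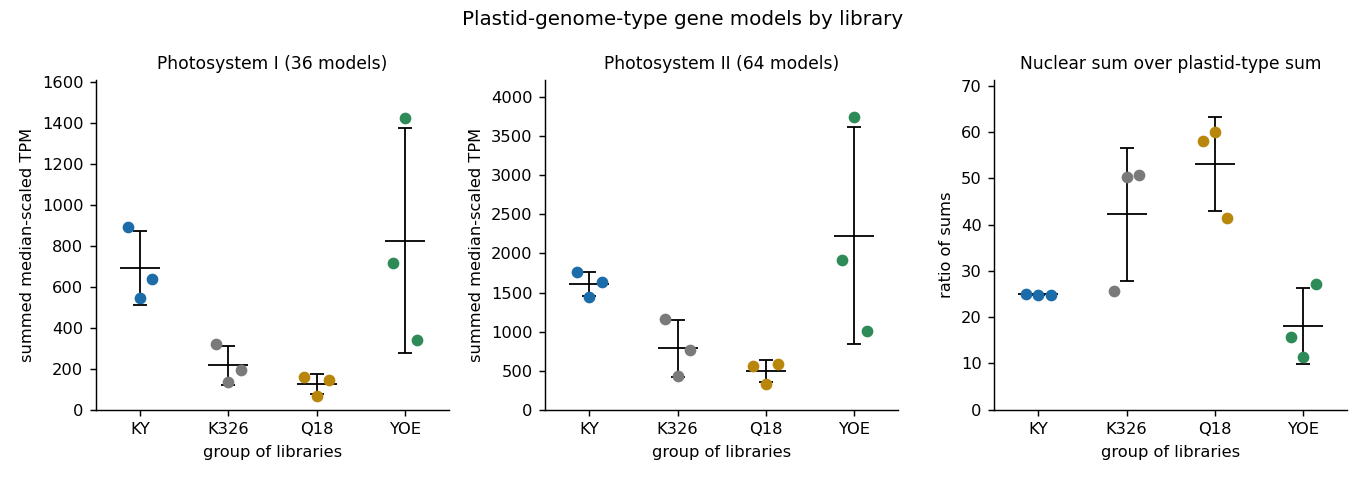
Summed median-scaled TPM of plastid-genome-type models of photosystem I and photosystem II, and the nuclear sum divided by the plastid-type sum, in each library (points), with the mean and SD of each group of 3 (bars). The photosystem I models lie between 544 and 893 in KY, 134 and 322 in K326, 67.6 and 162 in Q18, and 339 and 1425 in YOE.

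K326 stood below KY in these models. The photosystem I models summed to 692 ± 181 in KY and 218 ± 95.9 in K326 (log2 ratio -1.67), the photosystem II models to 1610 ± 159 and 786 ± 368 (-1.03), and the cytochrome b6-f models to 19.1 ± 5.53 and 7.61 ± 5.29 (-1.33). The groups did not overlap in any of the 3, each at the smallest p the exact permutation test allows, 0.1 (adjusted p = 0.311). On deposited values these log2 ratios were -1.21, -0.59 and -0.91, so the direction did not depend on the scaling. Among the 45 models tested, 15 were called lower in K326 (33.3%, against 13.3% of all genes). On deposited values it was 17 of 41 tested (41.5%, against 2.99% of all genes). Models can pass the filter through their high group alone, and 28 of the 45 were at 1 or more in all K326 and KY libraries. Among the 24 at 1 or more in all 12 libraries, 10 were called, and the median log2 difference was -1.36. Of the 15, 13 belonged to photosystem I, 1 to photosystem II and 1 to the cytochrome b6-f complex. Models of the same kind are not independent of each other, which the share of all genes does not take into account. Without KY replicate 1 or K326 replicate 2 the count was 4, without KY replicate 3 it was 6, and without K326 replicate 3 it was 9. Of all genes, 4059 were called lower in the main fit, and 1982, 2439, 2362 and 3443 in these fits in the order named.

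Single models showed the same order of levels. The photosystem I model Nitab4.5_0025922g0020 had 234, 126 and 169 in KY, 75.6, 35.6 and 49.7 in K326, 36.9, 18.4 and 28.6 in Q18, and 201, 372 and 86.3 in YOE. K326 was below KY without overlap (log2 difference -1.72, limma adjusted p = 0.0234), and YOE was above K326 without overlap (1.85, limma adjusted p = 0.0348). The smallest p for K326 against KY in a plastid-type model was that of PsaA or PsaB model Nitab4.5_0004822g0010, with 29.5, 22.4 and 21.2 in KY and 5.72, 5.53 and 6.81 in K326 (log2 difference -1.84, limma adjusted p = 0.00289). Model Nitab4.5_0003101g0120 of the same kind fell from 50.6 ± 15.0 to 13.0 ± 1.93, and Nitab4.5_0000718g0190 from 12.5 ± 5.32 to 2.02 ± 0.561. All 3 PsaC models passed, for example Nitab4.5_0001342g0130 at 12.6 ± 2.93 in KY and 3.25 ± 1.38 in K326. Of photosystem II models, the PsbB or PsbC model Nitab4.5_0002369g0020 was called, with 96.1, 54.6 and 68.1 in KY and 39.0, 24.3 and 34.3 in K326 (log2 difference -1.13, limma adjusted p = 0.0178). The cytochrome f model Nitab4.5_0008639g0040 was called too, at 6.65 ± 1.69 and 1.49 ± 0.729, and missed the threshold on deposited values (limma adjusted p = 0.054). The most abundant model of all, PsbA or PsbD model Nitab4.5_0003961g0020, had 502, 433 and 486 in KY and 395, 137 and 269 in K326, and missed the threshold (log2 difference -0.95, limma adjusted p = 0.14). So did Nitab4.5_0011952g0020 (401 ± 35.2 and 189 ± 93.8), Nitab4.5_0007859g0010 (229 ± 46.1 and 100 ± 40.3) and PsbH, a phosphoprotein of photosystem II, Nitab4.5_0004376g0090 (165 ± 39.8 and 70.2 ± 37.7).

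Against K326, YOE was higher in 19 of the 45 plastid-type models (42.2%, against 5.71% of all genes), and 0 were lower. Here too a model can pass the filter through its high group alone: 28 of the 45 were at 1 or more in all K326 and YOE libraries. Among the 24 at 1 or more in all 12 libraries, 11 were called, and the median log2 difference was 1.52. Every YOE library was above every K326 library in 26 of the 45, against 12.5% of all genes. The calls were 13 in photosystem I, 5 in photosystem II and 1 in the cytochrome b6-f complex. Here again models of the same kind are not independent of each other, so their count is not like that of all genes. This comparison and that of K326 with KY share the K326 libraries, so their calls are not independent. Every YOE library was also above every K326 library in the marker sums of the Rubisco small subunit (12211 to 19041 against 9664 to 11817) and of phloem (640 to 1434 against 344 to 392). On deposited values the order of the Rubisco sums was the opposite, with 10476 to 11289 in YOE and 11697 to 13538 in K326, and the phloem sums overlapped. Their part was not tested. The photosystem I models summed to 716, 1425 and 339 in YOE against 322, 134 and 197 in K326 (log2 ratio 1.93, exact permutation p = 0.1). The photosystem II models summed to 1919, 3739 and 1013 against 1165, 430 and 764, with overlap at 1 library (log2 ratio 1.5, exact permutation p = 0.2). On deposited values 25 of 41 tested models were called (61%, against 1.89% of all genes), and the log2 ratios were 1.17 and 0.76.

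That count leaned on few libraries. It was 1 without K326 replicate 2, 2 without K326 replicate 3 and 2 without YOE replicate 2, while it was 33 without YOE replicate 3, 12 without K326 replicate 1 or YOE replicate 1, and 0 when only the 6 libraries compared were fitted. Over all genes the count higher was 1749 in the main fit, and 801, 599 and 494 in the first fits named. It was 1318 without YOE replicate 3, 1138 without K326 replicate 1, 2825 without YOE replicate 1 and 121 with only the 6 libraries compared. YOE replicate 2 had the lowest scale factor (0.550) and the highest plastid-type sum, and Q18 replicate 2 had the highest scale factor (1.61) and the lowest plastid-type sum. With both left out, 2 models were called higher in YOE than in K326, and 28 lower in K326 than in KY. Of all genes, 422 and 4298 were called in the same directions. The part of library composition in these levels was not tested.

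Against KY, YOE had 0 plastid-type models called in either direction with limma, against 17.9% of all genes higher and 17.5% lower, and 1 at an unadjusted p under 0.05. In 0 models were the groups apart in either direction, against 23.1% and 24.5% of all genes. The plastid-type sums spread from 1371 to 5235 in YOE and from 2007 to 2681 in KY, so the absence of calls does not show equal levels. The median log2 difference was 0.19, and the YOE sums overlapped KY in every complex. Q18 stood below K326 in level, with photosystem I models at 125 ± 50.6 against 218 ± 95.9 and photosystem II models at 495 ± 142 against 786 ± 368. In 7 of the 45 models all Q18 libraries were below all K326 libraries and in 1 above, against 6.05% and 7.99% of all genes. The sums overlapped (log2 ratios -0.80 and -0.67, exact permutation p = 0.3 for both). Among the 3 plastid-type models with an unadjusted p under 0.05, Nitab4.5_0002369g0020 had 21.0, 15.8 and 21.9 in Q18 against 39.0, 24.3 and 34.3 in K326 without overlap, and its limma adjusted p was 0.717.

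The ratio of the nuclear to the plastid-type sum needs no scaling between libraries. It was 24.97, 24.85 and 24.87 in KY, 25.7, 50.3 and 50.7 in K326, 58.0, 59.97 and 41.4 in Q18, and 15.7, 11.4 and 27.1 in YOE. The KY libraries agreed closely, 1 K326 library was almost at the KY value while the other 2 were at about 50.3 to 50.7, and Q18 overlapped K326. YOE lay on either side of KY, with replicate 3 above it. Neither sum holds the 25 members with other domains, which summed to 1690, 1366 and 2139 in KY and 1380, 557 and 749 in K326. Most of that is Nitab4.5_0007104g0040, which carries an inner-antenna domain of photosystem II. The ratio and the closeness of the KY libraries therefore depend on how that gene was sorted, and the ratio was not worked out with it included. The ratio was examined with the sums already known and was not tested.

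The plastocyanin-like cupredoxins are a separate matter. Plastocyanin carries electrons in the thylakoid lumen, whereas genes described as plastocyanin-like include the phytocyanins, blue copper proteins that are secreted or held at the cell surface. Of the 113 genes, 45 were listed at 0 and 30 were tested. Their sum was 220, 273 and 237 in KY, 318, 297 and 275 in K326, 267, 285 and 309 in Q18, and 419, 547 and 404 in YOE, so every YOE library was above every other library. On deposited values the sums were 202 ± 40.2, 349 ± 57.9, 408 ± 47.9 and 333 ± 36.8, and YOE (324, 301 and 373) then overlapped K326 and had a mean below those of K326 and Q18. Phloem marker genes also had their highest sums in YOE (640 to 1434, against 344 to 593 elsewhere), though on deposited values they were 495, 707 and 1325 in YOE and 635 to 727 in Q18, and their part in these levels was not tested.

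In the test, 10 of 30 cupredoxin genes were higher in YOE than in KY (33.3%, against 17.9% of all genes) and 0 lower, and 8 were higher on deposited values. Against K326, 10 were higher (33.3%, against 5.71%), and 3 higher and 1 lower on deposited values. Without YOE replicate 2 the latter count of 10 was 3, without K326 replicate 3 it was 4, and without K326 replicate 1 or 2 it was 6. Of all genes, 1749 were called higher in the main fit, and 494, 599, 1138 and 801 in these fits in the order named. The cupredoxin genes too can pass the filter through their high group alone. With a mean of at least 5 required instead, 5 were higher in YOE than in KY and 6 higher than in K326. Between the wild types, 6 were higher and 3 lower in K326, against 12.2% and 13.3% of all genes. On deposited values it was 7 of 29 higher (24.1%, against 24.0% of all genes) and 0 lower. The count of 6 was 2 with KY replicate 3 left out, and 3 with KY replicate 1 or K326 replicate 2 left out. Of all genes, 3746 were called higher in the main fit, and 2189, 1928 and 2074 in these fits. Against K326 the knockout had 0 cupredoxin genes called, with 1 at an unadjusted p under 0.05 (limma). The most abundant gene, Nitab4.5_0000332g0050, had 56.5, 67.5 and 56.1 in KY, 86.4, 83.1 and 88.9 in K326, 73.1, 68.1 and 83.5 in Q18, and 145, 160 and 122 in YOE. YOE was above all other libraries, and the log2 difference was 1.23 against KY (limma adjusted p = 0.000101) and 0.71 against K326 (0.0125), the latter 0.04 on deposited values. Nitab4.5_0003378g0080 had 20.0, 21.99 and 19.8 in KY, 29.7, 34.95 and 43.4 in K326, 33.7, 31.7 and 48.9 in Q18, and 66.1, 93.8 and 68.4 in YOE. It too was highest in YOE (log2 difference 1.82 against KY, limma adjusted p = 7.93e-05, and 1.06 against K326, adjusted p = 0.0108), with 0.39 against K326 on deposited values. Nitab4.5_0000151g0350, a weakly expressed gene, rose from 1.49 ± 0.62 in KY and 3.89 ± 1.47 in K326 to 11.9 ± 1.74 in YOE.

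Other genes of the family moved differently. Nitab4.5_0000397g0230 had 4.41, 4.48 and 5.20 in KY, 2.18, 1.87 and 1.23 in K326, 3.27, 1.34 and 4.26 in Q18, and 9.14, 12.0 and 6.22 in YOE. It was lower in K326 than in KY (log2 difference -1.06, limma adjusted p = 0.0213) and higher in YOE than in K326 (1.85, adjusted p = 0.00652). Nitab4.5_0001198g0110 and Nitab4.5_0000795g0050 had the same pair of calls, at 13.0 ± 0.846 and 5.08 ± 0.780 in KY and 6.09 ± 2.22 and 2.59 ± 0.220 in K326. On deposited values none of these 3 genes passed for K326 against KY (limma adjusted p = 0.0541, 0.0571 and 0.202), and only Nitab4.5_0000397g0230 passed for YOE against K326. Nitab4.5_0002026g0130 and Nitab4.5_0000492g0180 were higher than KY both in K326 (log2 differences 0.93 and 1.09) and in YOE (1.05 and 1.46).

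**Figure D5:**
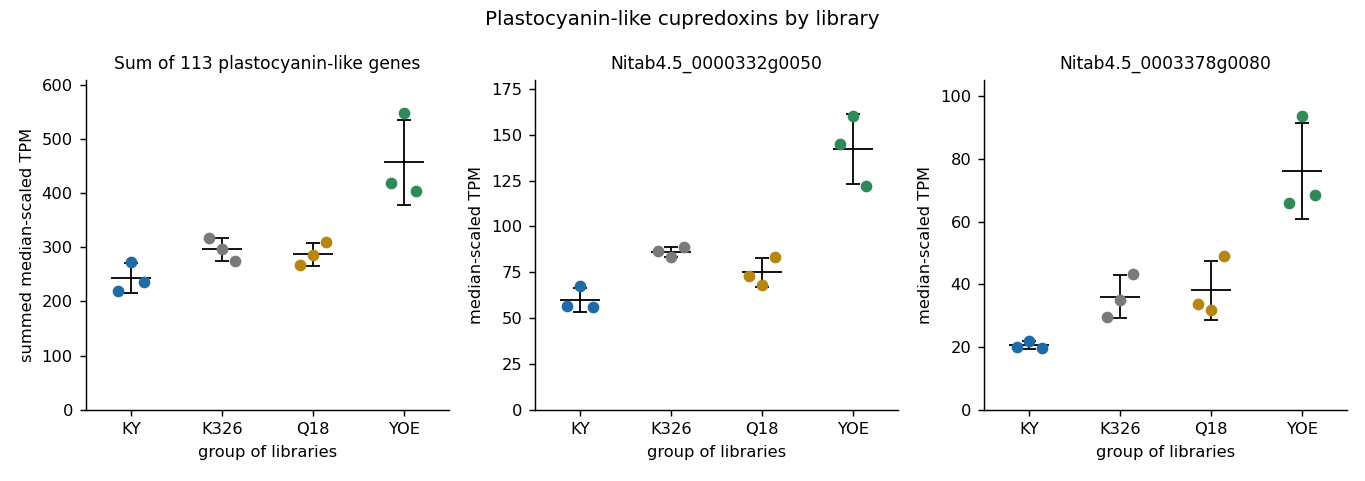
Median-scaled TPM of the summed 113 plastocyanin-like cupredoxins and of the genes Nitab4.5_0000332g0050 and Nitab4.5_0003378g0080 in each library (points), with the mean and SD of each group of 3 (bars). In each panel the 3 YOE libraries are the highest, with sums of 404 to 547 against 220 to 318 elsewhere.

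The neighbours of these complexes in the same pathway were picked by words in their descriptions. They were described by counts, set beside the share of all genes called in the same comparison. That share was 13.3% lower and 12.2% higher for K326 against KY (2.99% and 24.0% on deposited values), 17.5% and 17.9% for YOE against KY (11.5% and 6.76%), and 4.74% and 5.71% for YOE against K326 (36.9% and 1.89%). Of 88 tested light-harvesting chlorophyll a-b binding genes, which carry the antenna pigments, 18 were lower (20.5%) and 2 higher (2.27%) in K326 than in KY, with a median log2 difference of -0.61. On deposited values this became 3 lower (3.41%) and 5 higher (5.68%), with a median of -0.13. Against K326, YOE had 1 antenna gene lower, and 24 lower on deposited values (27.3%, under the share of all genes). Of 8 tested genes of the NDH complex, which returns electrons from photosystem I to the plastoquinone pool, 4 were lower in K326 than in KY (0 on deposited values) and 2 were lower in YOE than in KY on either scale.

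Ferredoxins and their reductases were listed by the word ferredoxin, which need not mark either in every gene. Of 133 tested genes with that word, 23 were lower (17.3%) and 9 higher (6.77%) in K326 than in KY. In YOE against KY, 24 were lower (18%) and 16 higher (12%). Deposited values gave 1 lower and 32 higher (23.9%, near the share of all genes), and 17 lower (12.7%) and 3 higher (2.24%). ATP synthase genes, plastid and mitochondrial together, had 14 lower (16.7%) and 9 higher (10.7%) of 84 in K326 against KY, near the shares of all genes, and 0 lower and 11 higher (13.1%) in YOE against K326. On deposited values they had 12 lower and 18 higher of 85, and 25 lower (29.4%, under the share of all genes) and 11 higher (12.9%). Rieske-domain genes other than PetC had 7 lower (36.8%) and 4 higher (21.1%) of 19 in YOE against KY, and 6 lower (31.6%) and 1 higher on deposited values.

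Sigma factors guide the plastid RNA polymerase to its promoters. Of 16 tested, 12 were lower in YOE than in KY (75%, against 17.5% of all genes, median log2 difference -0.77) and 11 on deposited values (68.8%, against 11.5%). In K326 against KY 7 were lower (43.8%, against 13.3%), and on deposited values 1 lower and 1 higher. In YOE against K326 2 were lower, and 12 on deposited values (75%, against 36.9%). Their summed level was 353 in KY, 275 in K326, 279 in Q18 and 226 in YOE. The FtsH protease family, which has members that remove damaged photosystem II proteins, was listed by the words FtsH or peptidase M41. Those words need not mark such a member in every gene. Of 26 genes tested, 10 were lower (38.5%) and 1 higher (3.85%) in YOE than in KY, and 6 lower (23.1%) and 1 higher in K326 than in KY. Deposited values gave 7 lower (26.9%) and 0 higher, and 1 lower and 3 higher. Of 4 tested genes for thylakoid carriers, 1 was lower in K326 and 1 in YOE, each against KY. The knockout had 0 genes called in any of these lists.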

How the data were processed

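RNA-seq values of 12 leaf libraries were used from the table the authors deposited. Salmon and StringTie are named in the submitters' processing notes; alignment parameters, the genome build and the annotation's handling are not given in the sources used here. Values deposited by the authors were read as TPM, since Salmon reports that unit and all columns stay under its limit. No unit stands in the header, and FPKM would look the same. TPM keeps no depth, so the number of reads is unknown and the number of libraries limits precision. Genes are named by the table's identifiers and domain descriptions; 0 matched the RefSeq table, and sequences and positions were not used here.

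Groups came from the sample labels. Each library was divided by the median of its ratios to a geometric-mean library, taken from 20130 genes that reach 1 in every library. Genes at 1 or more in at least 3 libraries (30621) were fitted as log2(value + 1) with limma 3.58.1 (R 4.3.3; trend and robust) over all 12 libraries, with Benjamini-Hochberg adjustment over all genes at 0.05. Fold changes on that scale understate those of low genes. Deposited values without scaling (31311 genes) were the first alternative. Sums of subunits were compared by exact two-sided permutation tests. The fit was tested on simulated data.

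Genes were sorted into nuclear, plastid-genome-type, cupredoxin and mixed classes by fixed patterns. The naming rule took every tested plastid-type model, the most abundant gene of each nuclear kind, and up to 8 called members per direction and comparison with the smallest p; of the plastid-type models only the most abundant and some of those called are named, and the rest are given by counts and range. The members, lists and tests were chosen with earlier results of these data known. Figures used matplotlib 3.10.9 and tables Python 3.11.15, pandas 2.3.3, numpy 2.4.6 and scipy 1.17.1. Alternatives were a 2-fold minimum, quantile normalization, fits of just the 6 libraries in a comparison, 0.1 as the pseudocount, a filter on a mean of 5 or none, the replicate number as a block, and each library left out. Leaving out the libraries of lowest and highest scale factor was an alternative chosen after seeing the data.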

Additional observations from a re-analysis of the deposited data

How the results depend on the processing

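Counts of genes called are in the order of main value, then alternatives. Deposited values: K326 against KY gave 32 members in place of 55, with 2 nuclear higher, 1 nuclear lower and 0 cupredoxins lower; YOE against KY gave 0 nuclear higher and 24 lower; YOE against K326 gave 17 nuclear lower, 3 cupredoxins higher and 1 lower. Sums changed sign with it: YOE against K326 became -0.43 for nuclear photosystem I, -0.49 for photosystem II, -0.58 for cytochrome b6-f and -0.075 for plastocyanin, Q18 against K326 became 0.078 for photosystem II and 0.0029 for cytochrome b6-f, and YOE against KY became -0.0385 for plastid-type photosystem I. Of the named genes that passed on either scale, Nitab4.5_0009292g0020 (K326 against KY, 0.0531) and Nitab4.5_0002475g0030 (YOE against K326, -0.66) changed sign. Many genes that passed on neither scale changed sign too. For YOE against K326, 96 of 109 nuclear genes were above 0 after scaling, and 103 were below 0 on deposited values. 

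A 2-fold minimum left 11 members for YOE against KY (0 nuclear higher, 3 lower), 26 for K326 against KY (7 nuclear lower, 1 cupredoxin higher) and 6 cupredoxins higher for YOE against K326. Quantile normalization gave 1 nuclear higher for YOE against KY and for K326 against KY, and 2 lower for YOE against K326. Without a filter, YOE against KY had 1 nuclear and 1 plastid-type gene higher and 1 cupredoxin lower, and YOE against K326 had 15 members, 5 plastid-type higher and 0 nuclear lower. A mean of at least 5 gave 5 cupredoxins higher for YOE against KY, 3 higher and 1 lower for K326 against KY, and 6 higher with 1 nuclear higher for YOE against K326. The 6 compared libraries alone gave 1 nuclear higher for YOE against KY, 29 plastid-type lower for K326 against KY, and for YOE against K326 1 member, 0 plastid-type, 0 nuclear lower and 1 cupredoxin higher. Without both libraries at the ends of the scale factor, K326 against KY had 37 nuclear and 28 plastid-type lower, YOE against KY 1 nuclear higher and 2 plastid-type lower, and YOE against K326 5 members, 0 nuclear lower, 2 plastid-type and 3 cupredoxins higher. For none of these was the cause tested.

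Each library left out gave, for K326 against KY, 21 to 52 members, 7 to 31 nuclear lower, 4 to 21 plastid-type lower and 2 to 4 cupredoxins higher. For YOE against KY it gave 16 to 27 members, 1 to 2 nuclear higher, 5 to 15 nuclear lower, 0 to 3 plastid-type higher and 0 to 1 lower, and for YOE against K326 7 to 47 members, 0 to 2 nuclear higher, 0 to 1 lower, 1 to 33 plastid-type higher and 3 to 9 cupredoxins higher. Among log2 ratios of sums that changed sign, YOE against K326 ran from -0.0006 to 0.53 for nuclear photosystem I and from -0.0884 to 0.191 for nuclear cytochrome b6-f, YOE against KY from -0.391 to 0.63 for plastid-type photosystem I, from -0.135 to 0.813 for photosystem II and from -0.235 to 0.806 for cytochrome b6-f, and Q18 against K326 from -2.04 to 0.0428 for plastid-type cytochrome b6-f.

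The main fit did not treat replicate numbers as pairs, and whether they pair the samples could not be settled. Correlations of same-numbered deviations ranged from -0.22 to 0.34, and all 3 KY libraries correlated best with their own number in K326 and in Q18. With the replicate number as a block, 1 nuclear gene was higher in YOE than in KY and 11 plastid-type genes were higher in YOE than in K326. Of the named genes' values under all alternatives, 4081 kept their side of the threshold, 104 newly passed and 293 no longer passed. A further 2 changed sign in genes that passed in the main or the alternative fit. Changes of sign in genes that passed in neither fit were not counted apart and stand among the 4081. The knockout comparison had 0 members called under every alternative.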

Other observations

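The 25 members with other domains as well were kept out of the comparisons above, and 16 of them were tested. One stands out by level: Nitab4.5_0007104g0040, whose description joins the second-largest subunit of RNA polymerase with the inner-antenna domain of photosystem II, had 1575, 1269 and 2030 in KY, 1294, 478 and 660 in K326, 415, 315 and 594 in Q18, and 2047, 2880 and 1624 in YOE. It held most of the sum of these 25 members (1732 ± 388 in KY, 896 ± 431 in K326, 522 ± 144 in Q18 and 2290 ± 651 in YOE), and its order of groups was that of the plastid-type models. It was higher in YOE than in K326 (log2 difference 1.52, limma adjusted p = 0.0294). Which of its domains the reads cover was not tested. A gene with only the PsbP fold, Nitab4.5_0010747g0020, was called lower both in K326 and in YOE than in KY, and in neither on deposited values (limma adjusted p = 0.266 and 0.0539). Among the others, Nitab4.5_0004457g0020, with a cupredoxin and a Mago nashi domain, was higher than in KY (14.3 ± 1.41) both in YOE (19.5 ± 1.79) and in K326 (18.9 ± 2.50), and Nitab4.5_0002700g0140 was lower in K326 than in KY (0.801 ± 0.204 against 1.87 ± 0.286). On deposited values the call of Nitab4.5_0004457g0020 held for K326 (log2 difference 0.85, limma adjusted p = 0.00781) and was lost for YOE (adjusted p = 0.412), and that of Nitab4.5_0002700g0140 was lost (adjusted p = 0.0993).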
